A study of Mus musculus with 16 samples.

Results

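ATAC-seq, which marks open chromatin by the insertion of a transposase, was examined in activated splenic B cells for the regions that stood higher within the libraries of Brg1fl/fl cells than within those of Brg1fl/+ cells. Peaks of the 8 deposited lists were joined where they overlapped or touched, which gave 16566 combined regions, of which 4582 on chromosomes 1 to 19, X and Y held a peak in every list. Within each library these shared regions were ranked by the fold of the highest peak over the local background, as a percentile from 0 to 100. The members were chosen by these measured ranks. In 337 of the 4582 shared regions, or 7.35%, the lowest of the 4 Brg1fl/fl ranks was above the highest of the 4 Brg1fl/+ ranks. The reverse held in 249 regions, or 5.43%. Because the ranks selected the members, the differences in rank and fold between genotypes are given below as a description, with no test.

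Both genotypes carried CD23-Cre on 1 allele (CD23Cre+/-), a transgene that acts in mature B cells, on a C57BL/6 background. The control libraries came from Brg1fl/+ mice, in which only 1 of the alleles of Smarca4, the gene of Brg1, can be deleted, and both alleles can be deleted in Brg1fl/fl mice. There was thus no group with both alleles intact. The cells were splenic B cells purified by depletion of CD43+ cells and then stimulated with LPS (10 µg/ml) in the presence of 20 ng/ml of the cytokine IL-4. The sample labels give 72 hours of activation and the series description 96 hours. Each of the 4 libraries per genotype was made from 50000 cells. The number of mice behind them is not stated in the sources used here, so the spread between libraries may be partly technical, and neither the extent of deletion nor the amount of Brg1 can be read from the lists.

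Brg1 is the ATPase of the BAF chromatin remodelling complex, which slides or evicts nucleosomes at promoters and enhancers. Most regions that are open in every cell culture are promoters of widely expressed genes. There, factors such as NF-Y, which binds the CCAAT box, and SP/KLF proteins, which bind GC-rich boxes, act on a stretch free of nucleosomes just upstream of the transcription start.

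The lists held 6372 to 14614 peaks for Brg1fl/+ and 6271 to 9216 for Brg1fl/fl. Summit fragments, and the background expected beneath them, were recovered by combining the fold of a peak with its −log10 p. The median shared region had 78, 50, 23 and 36 summit fragments in Brg1fl/+ replicates 1 to 4, and 47, 22, 42 and 42 in Brg1fl/fl. Depth therefore overlapped between genotypes (two-sided exact permutation test, 70 ways to assign the libraries, p = 0.6). The lowest background of a library was 0.846 ± 0.323 fragments in Brg1fl/+ and 1.32 ± 0.382 in Brg1fl/fl (SD, n = 4 and 4, exact permutation test, two-sided, p = 0.0857, smallest possible p 0.0286). The median fold of all shared regions was 13.6, 13.2, 10.4 and 12.0 in Brg1fl/+ and 11.2, 9.27, 11.1 and 11.2 in Brg1fl/fl, so a fold of a given size ranked higher in the Brg1fl/fl lists than in Brg1fl/+ replicates 1, 2 and 4. Of 15 B cell markers, 3 (Ms4a1, Pax5 and Cd74) had a promoter peak in all 8 lists and 10 in at least 1. None of the 10 T cell, 9 myeloid, 5 natural killer or 5 erythroid markers had one in all 8 lists, although 1 T cell and 1 myeloid marker did in at least 1.

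The widest gaps between the genotypes lay at tandem repeats far from promoters and at promoters. The reference sequence (GRCm38.p6, plus strand, a window centred on the median summit) of the 4 tandem repeats is shown because 2 of them had the widest gaps of all. Capitals mark a match on either strand to any of 22 short motifs searched. The only match in them is the CTCF core AGGGGGC at Tmem267.
Intron of Tmem267, chr13:119598997-119599197: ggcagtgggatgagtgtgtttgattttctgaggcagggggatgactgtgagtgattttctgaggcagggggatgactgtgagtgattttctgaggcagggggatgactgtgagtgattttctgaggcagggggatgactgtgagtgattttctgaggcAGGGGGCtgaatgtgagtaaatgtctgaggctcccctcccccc
Intron of Gm32624, chr16:86820907-86821107: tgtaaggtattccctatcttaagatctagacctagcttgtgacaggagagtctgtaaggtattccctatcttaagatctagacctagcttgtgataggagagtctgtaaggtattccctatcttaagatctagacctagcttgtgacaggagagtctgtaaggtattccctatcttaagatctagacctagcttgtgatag
Intron of Dnah14, chr1:181743251-181743451: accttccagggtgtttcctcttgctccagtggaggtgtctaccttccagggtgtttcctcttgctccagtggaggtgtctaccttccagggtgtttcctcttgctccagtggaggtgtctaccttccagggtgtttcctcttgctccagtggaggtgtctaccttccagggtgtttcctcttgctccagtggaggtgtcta
Intron of Dlgap2, chr8:14306801-14307001: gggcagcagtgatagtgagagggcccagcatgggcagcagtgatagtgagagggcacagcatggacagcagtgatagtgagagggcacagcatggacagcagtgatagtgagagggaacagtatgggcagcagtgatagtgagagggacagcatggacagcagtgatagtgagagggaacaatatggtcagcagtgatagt
The Gm32624 window repeated with a period of 52 bp and 98.0% identity between successive copies, and the Dnah14 window with 40 bp and 100% identity. The periods at Tmem267 and Dlgap2 were both 31 bp, with 88.2% and 79.4% identity. None of the 4 windows held a CpG.

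The promoters among the 10 widest gaps had no such repeats. The windows of Uvrag and Rel are shown for contrast, the first for its CCAAT boxes (ATTGG on the reverse strand) and the second for its single CRE site, TGACGTCA, which is bound by ATF and CREB proteins. The other capitals are SP/KLF boxes (GGGCGG) in both windows and a RUNX site (TGTGGT) at Uvrag.
Promoter of Uvrag and Gm45185, chr7:99141211-99141411: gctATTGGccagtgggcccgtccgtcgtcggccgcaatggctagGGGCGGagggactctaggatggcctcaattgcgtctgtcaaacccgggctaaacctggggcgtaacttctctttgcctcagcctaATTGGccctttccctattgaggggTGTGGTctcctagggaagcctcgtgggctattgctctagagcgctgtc
Promoter of Rel, chr11:23771176-23771376: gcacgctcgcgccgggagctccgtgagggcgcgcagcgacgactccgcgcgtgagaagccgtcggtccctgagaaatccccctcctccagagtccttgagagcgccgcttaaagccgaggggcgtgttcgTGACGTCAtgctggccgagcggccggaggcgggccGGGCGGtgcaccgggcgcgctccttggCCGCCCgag
These windows held 11 and 31 CpGs, and their GC content was 59.7% and 73.1%.

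Among the 337 members, the gap between the lowest Brg1fl/fl and the highest Brg1fl/+ rank had a median of 4.85 percentile points (quartiles 1.72 and 10.1), and 51 members were separated by 1 point or less. The gap exceeded 20 points in 18 members and reached 45.2. The largest was in an intron of Tmem267 (chr13:119596591-119602994), a gene encoding a transmembrane protein, and the folds there were 13.8, 11.7, 10.8 and 12.2 in Brg1fl/+ and 20.2, 18.7, 20.1 and 20.1 in Brg1fl/fl. The groups did not overlap in fold or rank, and all 4 Brg1fl/fl ranks were at least 99.3 while the highest Brg1fl/+ rank was 54.0. The gap depended on the measure, and was 3.19 points when regions were ranked by −log10 q and 0.742 by summit fragments. The region was 6404 bp wide, and 26.4% of its 31-bp words also occurred in another shared region. The placement of reads there was not tested.

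The second gap, 39.6 points, was in an intron of the noncoding gene Gm32624 (chr16:86820784-86821227). Its folds were 9.13, 9.36, 8.49 and 10.01 in Brg1fl/+ and 13.4, 12.2, 12.6 and 14.5 in Brg1fl/fl. These rested on 14 to 23 summit fragments in Brg1fl/+ and 26 to 46 in Brg1fl/fl, and the summit lay at −533178 bp from the nearest coding start, that of N6amt1. In an intron of Dnah14, an axonemal dynein gene (chr1:181743009-181743836), ranks were 23.8, 17.9, 6.53 and 21.1 in Brg1fl/+ and 66.9, 83.9, 50.3 and 49.2 in Brg1fl/fl. The ranks were separated by 25.4 points, whereas the folds overlapped, from 5.92 to 11.3 against 11.1 to 12.6. In an intron of Dlgap2 (chr8:14306749-14307362), a gene for a postsynaptic scaffold protein, the folds were 10.3, 10.8, 10.6 and 10.9 against 13.3, 13.4, 16.03 and 13.4, and did not overlap.

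Of the promoters, Uvrag, which encodes a regulator of autophagy and endosome maturation, was separated by 27.1 points (chr7:99140899-99141748). Its ranks were 22.6, 40.7, 44.6 and 43.6 in Brg1fl/+ and 73.3, 76.2, 78.2 and 71.7 in Brg1fl/fl. The folds overlapped, since Brg1fl/fl replicate 2, at 11.5, was below Brg1fl/+ replicate 2, at 12.4. Ranked by −log10 q the gap was 4.65 points, and by summit fragments the genotypes overlapped (−0.917). The region over Atf5, Il4i1 and Nup62 had a gap of 26.9 points (chr7:44815714-44816578), and its folds did not overlap, at 11.4, 11.3, 9.38 and 10.04 against 12.6, 11.6, 12.3 and 13.4. Atf5 is a stress-responsive transcription factor, Il4i1 an amino acid oxidase induced by IL-4, and Nup62 a nuclear pore protein, and their starts cannot be told apart within this region.

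Rel encodes c-Rel, the NF-κB subunit that drives proliferation of activated B cells. At its promoter (chr11:23770800-23771569) the folds were 12.3, 13.6, 11.6 and 11.7 in Brg1fl/+ and 15.1, 14.9, 15.5 and 15.4 in Brg1fl/fl. All Brg1fl/fl values lay above all Brg1fl/+ values, and the gap was 25.1 points by fold, 2.18 by −log10 q and 0.186 by summit fragments. It was the only one of 15 shared promoter regions of NF-κB and IκB genes among the members. This share, 6.67%, was close to the 6.78% of all shared promoters, so the list did not stand out. None of the 15 lay in the reverse set, but 15 regions are too few for that absence to be read.

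A further 4 promoters completed the 10 widest gaps. At Zmiz2, a transcriptional coactivator gene, the ranks were 30.0, 37.4, 33.1 and 18.1 against 62.7, 61.7, 66.7 and 68.4. At Usp20, a deubiquitinase gene that shares the region with BC005624, they were 64.3, 68.9, 49.8 and 71.7 against 95.4, 96.4, 98.2 and 97.8. Aph1b, a subunit of γ-secretase, was low in every list, at 13.7, 10.2, 4.92 and 8.82 against 44.1, 49.4, 37.1 and 42.4. The last, Actr3, encodes a subunit of the ARP2/3 actin nucleator, and stood at 15.6, 35.3, 33.7 and 44.8 against 69.8, 89.8, 77.8 and 68.1. The folds of Usp20 and Actr3 did not overlap between genotypes, whereas those of Zmiz2 and Aph1b did. By summit fragments the ranks of Zmiz2 and Usp20 overlapped (−3.07 and −1.07 points), the gap of Actr3 was 0.491 and that of Aph1b remained at 16.8. The fifth distal region by gap, 19.9 points, lay in an exon of Bard1, the partner of BRCA1, with its summit 48 bp downstream of the coding start, and its ranks overlapped by −log10 q (−0.775) and by summit fragments (−5.31). Among the other regions, the gaps by summit fragments were 35.1 points at Dlgap2, 28.2 at Dnah14, 17.8 at Gm32624 and 6.14 at Atf5, Il4i1 and Nup62.

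**Figure D1:**
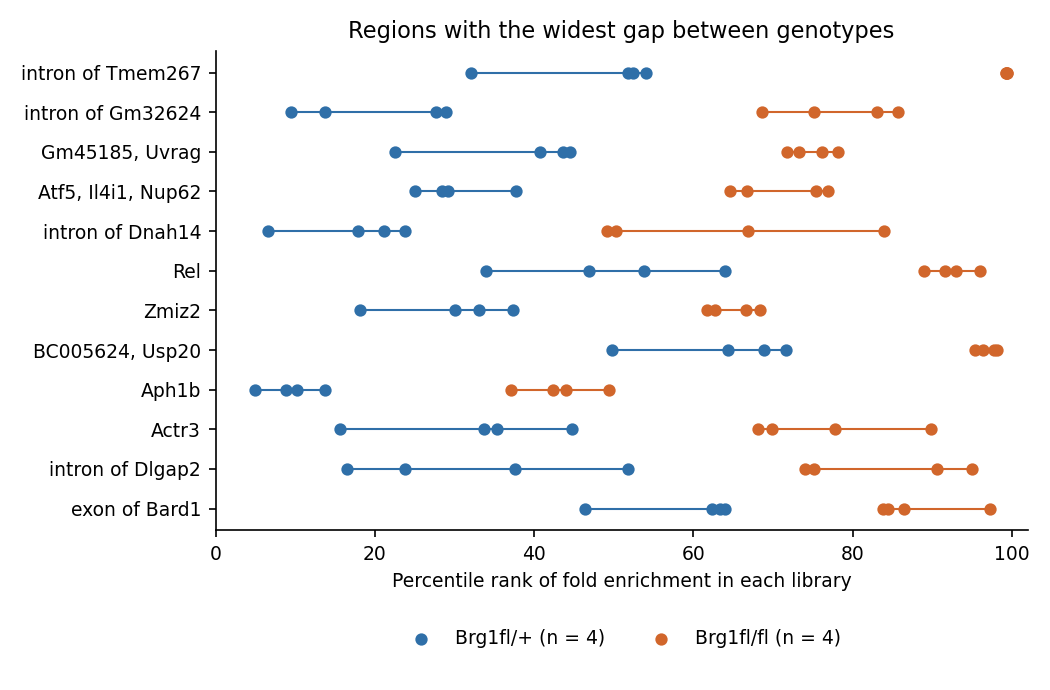
Percentile rank of fold enrichment (x axis, 0 to 100) in each of the 4 Brg1fl/+ (blue) and 4 Brg1fl/fl (orange) libraries for the 10 members with the widest gap and the 5 widest distal members, 12 regions in all; lines join the lowest and highest library of a genotype. At the intron of Tmem267 all 4 Brg1fl/fl points lie at or above 99.3, and at Aph1b the Brg1fl/fl ranks reach only 49.4.

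Because the ranks discard the overall lower fold of the Brg1fl/fl lists, the folds themselves were also compared. Over all shared regions, the median log2 difference in fold, Brg1fl/fl minus Brg1fl/+, was −0.17, and it was 0.13 in the members and above 0 in 315 of them. The fold in all 4 Brg1fl/fl lists was above all 4 Brg1fl/+ lists in 49 shared regions (1.07%) and below in 566 (12.4%). Of the 49, 44 were members, which is 13.1% of the members. For most members, therefore, what separated the genotypes was the standing within the library and not the fold as deposited.

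The fold combines fragments at the summit with the local background. Because the fold chose the members, a higher level of summit fragments in Brg1fl/fl is partly built in, and the parts are given as a description. When summit fragments were ranked instead of the fold, 167 of the 337 members met the rule. Relative to the median shared region of the same library, the log2 level of summit fragments in the median member was 0.33, 0.33, 0.32 and 0.35 in Brg1fl/+ and 0.68, 0.65, 0.70 and 0.70 in Brg1fl/fl. The local background on the same scale was 0.44, 0.41, 0.28 and 0.38 against 0.46, 0.37, 0.44 and 0.46, and the genotypes overlapped. The mean relative level of fragments, a part of the fold that chose the members, was higher in Brg1fl/fl in 334 of 337 members, beside 58.8% of all shared regions. That of background was higher in 199 (59.1%), beside 52.2% of all. In these bulk libraries, a larger share of cells with an open region and more open chromatin in each cell cannot be told apart.

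**Figure D2:**
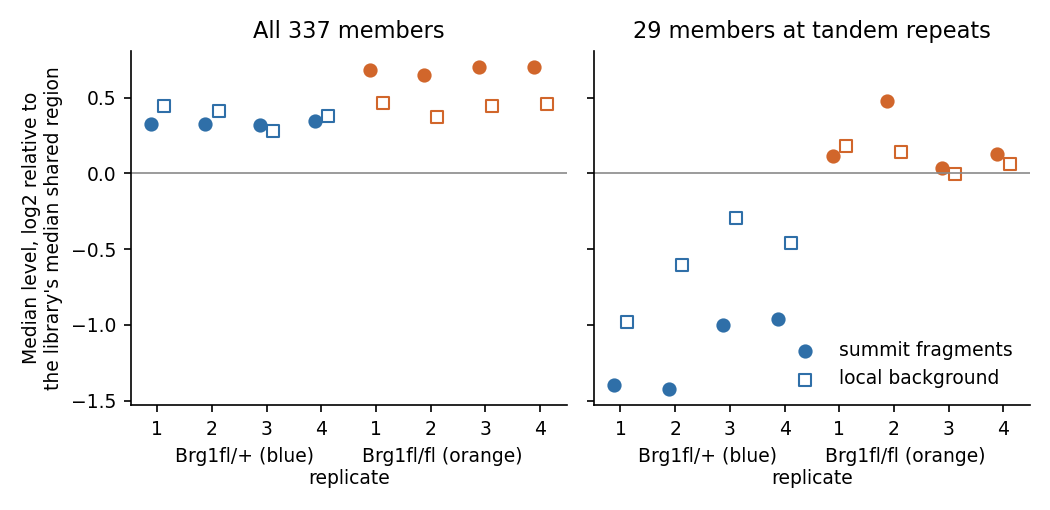
Median level of summit fragments (filled circles) and local background (open squares) in each library, as log2 relative to the median shared region of that library (y axis), for all 337 members (left) and the 29 members at tandem repeats (right). Among all members only the circles separate the genotypes, at 0.32 to 0.35 in Brg1fl/+ (blue) and 0.65 to 0.70 in Brg1fl/fl (orange), whereas at tandem repeats circles and squares both do.

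Since the members were chosen on all 8 libraries, the same rule was applied to part of the libraries and read in the others, which it had not used. The names of the lists put libraries 1 and 2, and 3 and 4, of each genotype together. Of the shared regions, 1299 (28.4%) ranked higher in Brg1fl/fl in libraries 1 and 2 and 1138 (24.8%) lower. In libraries 3 and 4, 1042 (22.7%) ranked higher and 984 (21.5%) lower. Of the 1299 chosen on libraries 1 and 2, 36.0% were also higher in libraries 3 and 4 and 10.9% were lower. Of the 1042 chosen on libraries 3 and 4, 44.9% were also higher in libraries 1 and 2 and 12.4% lower. Among the 100 widest gaps in libraries 1 and 2, 62 were separated in the same direction in libraries 3 and 4 and 3 in the opposite one, and the converse choice gave 54 and 10. The regions ranked lower also carried over. Of the 1138, 33.7% were lower in libraries 3 and 4 too, and of the 984, 39.0% were lower in libraries 1 and 2. The number of mice is not stated, so the 2 pairs of libraries may not be independent. A comparison of 2 libraries with 2 cannot pass the threshold of 0.05, so these shares are a description.

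When 7 libraries chose the regions, the eighth fell on its own side in 58.5% to 83.2% of them. In every case these were the 337 members, so the share only restates how many regions the 7 libraries chose. The 24.3% to 30.2% over all shared regions is not a background for it, because the choice already ordered the 7 libraries. The lowest share on the library's own side was for Brg1fl/+ replicate 3, one of the shallow libraries. Without it, 576 regions met the rule instead of 337. The rank order of the 4 Brg1fl/+ lists among themselves correlated at 0.708 to 0.823 and that of the Brg1fl/fl lists at 0.770 to 0.835. Between genotypes it was 0.585 to 0.706 for Brg1fl/+ replicates 1 and 2 and 0.700 to 0.749 for replicates 3 and 4. These correlations are across the 4582 regions, which are not independent replicates.

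The members were less often at promoters than the shared regions as a whole, and much of that difference coincided with repeats. Promoters reached from 1000 bp before any annotated start to 100 bp after it. By this definition, 270 of 337 members (80.1%) were at promoters, against 86.9% of all shared regions and 88.0% of the reverse set. Of the shared introns 27 of 188 (14.4%) and of the intergenic regions 24 of 191 (12.6%) were members, beside 6.78% of the promoters. Exons, with 12 of 175, and transcription termination sites, with 4 of 47, were near the background of 7.35%. All regions that were not promoters by this definition are called distal. Of these 601, 232 had their summit within 1000 bp of a coding start, 16 of them members.

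Tandem repeats of the kind shown above accounted for much of the distal share. A window was counted as one when at least 70% of its bases matched those 1 period of 10 to 100 bp further on, a definition chosen after the sequences had been seen. Of the 105 such shared regions, 29 (27.6%) were members and 2 were in the reverse set. The share was 27.3%, 26.6% and 32.1% of the regions at 60%, 80% and 90% identity. Distal regions without a tandem repeat held 40 members of 505 (7.92%), close to the background. The periods of the 29 ranged from 12 to 88 bp (median 34), 20 of the windows had no CpG, and 13 of the regions had under 5% soft-masked sequence, so that a repeat mask would not have removed them.

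The tandem-repeat members stood below the median shared region in Brg1fl/+ and near it in Brg1fl/fl. The median fold of the 29 members was 9.49, 7.75, 6.72 and 9.02 in Brg1fl/+ and 11.2, 11.1, 11.1 and 10.1 in Brg1fl/fl. Their summit fragments stood at −1.40, −1.42, −1.0 and −0.96 against 0.12, 0.48, 0.03 and 0.13, as log2 relative to the median shared region, and the genotypes did not overlap. The local background moved with them, at −0.98, −0.60, −0.30 and −0.46 against 0.18, 0.14, −0.00436 and 0.06. Over all 105 tandem repeats, members or not, the fragments stood at −1.55, −1.50, −0.88 and −1.04 against −0.38, −0.13, −0.52 and −0.57. In an intron of Uxs1 (chr1:43777669-43778915) the summit held 13, 13, 10 and 9 fragments in Brg1fl/+ and 28, 24, 23 and 23 in Brg1fl/fl, a region chosen after its values were seen. How many reads map to such repeats depends on the number of copies in the mice and on how repeated alignments were treated, neither of which was tested.

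Regions with over 50% soft-masked sequence, which overlap this class, held 27 members of 127 (21.3%). Of the 27, 16 shared over 50% of their 31-bp words with another shared region, as did 64 of all 127. One member of both kinds (chr12:113424312-113425255), annotated as the promoter of the small genes Gm24022 and Gm25747, lies in the immunoglobulin heavy chain locus between Ighm and Ighj4, the interval that holds the repeats of the µ switch region. It was also chosen after its values were seen. It had a period of 20 bp and folds of 8.18, 6.66, 8.41 and 5.598 in Brg1fl/+ and 10.2, 8.79, 10.05 and 10.04 in Brg1fl/fl, which did not overlap.

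**Figure D3:**
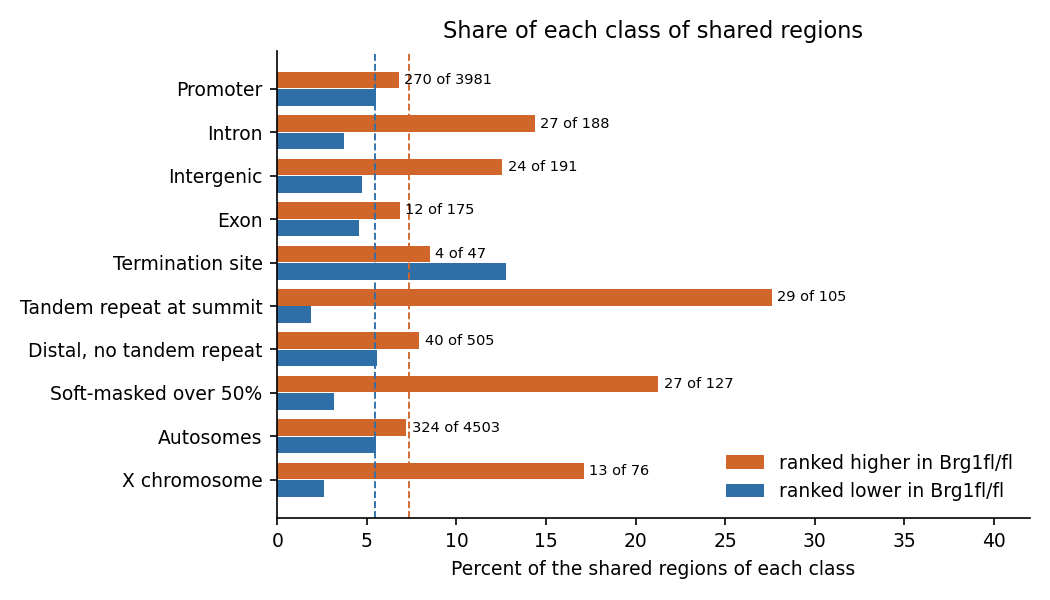
Percent of the shared regions of each class (x axis) that ranked higher (orange) or lower (blue) in all 4 Brg1fl/fl libraries, with the number of members beside each bar; dashed lines mark the shares over all shared regions, 7.35% and 5.43%. Tandem repeats, soft-masked regions and the X chromosome stand out for the orange share, while distal regions without a tandem repeat, at 7.92%, do not.

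At promoters, the summits of the members lay further from the start than usual. Within 1000 bp of a coding start, the summits of 276 members had a median position of −76.5 bp, beside −44 bp for 4096 shared regions and −47.5 bp for 220 of the reverse set. More than 100 bp upstream lay 40.6% of the members, 25.4% of all and 15.5% of the reverse set. The share of members was smallest, at 2.85%, among summits 1 to 50 bp upstream of the start. It rose on both sides, to 15.97% at 151 to 200 bp upstream and 15.7% at 150 to 199 bp downstream. The reverse set was ordered differently, with 6.89% at 1 to 50 bp upstream and 2.10% at 151 to 200 bp upstream.

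This displacement was larger in libraries 1 and 2, which put 40.4% of the chosen regions near a coding start over 100 bp upstream, than in libraries 3 and 4, where the share was 28.2%. When regions were ranked by summit fragments instead of fold, the share was 29.7%. The members were also wider, with a median of 813 bp against 711.5 bp for all shared regions and 634 bp for the reverse set, and their summits spread over 149 bp among the 8 lists, against 101 bp and 73 bp. Across shared regions, fold and width were negatively correlated by rank within each Brg1fl/+ list, at −0.33, −0.26, −0.13 and −0.17, and less so in the Brg1fl/fl lists, at −0.05, −0.01, −0.07 and −0.07. The part of this in the members' ranks was not tested.

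**Figure D4:**
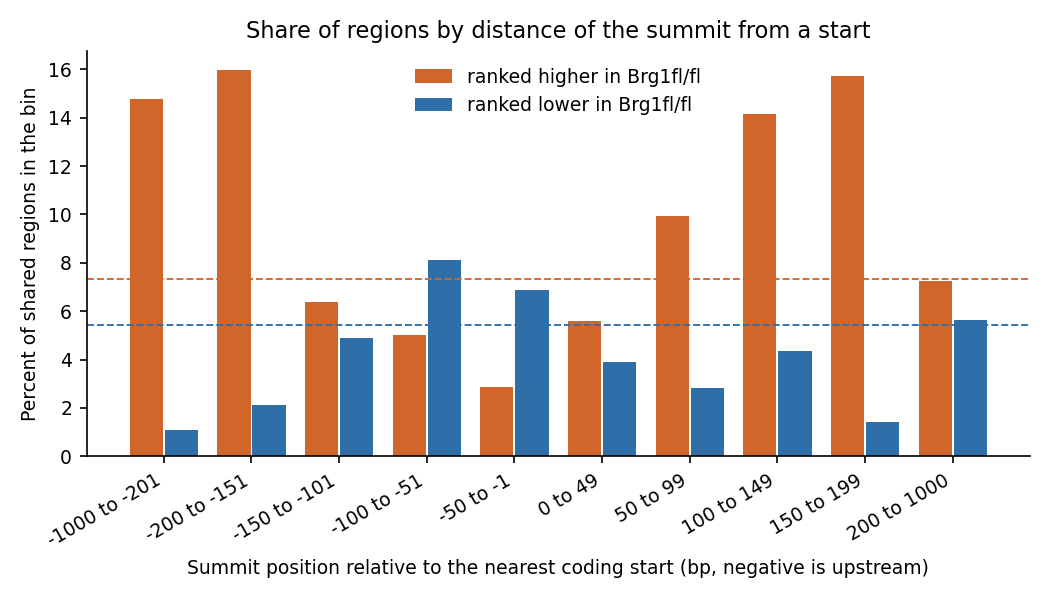
Percent of the shared regions in each bin of summit position relative to the nearest coding start (x axis, bp, negative upstream) that ranked higher (orange) or lower (blue) in all 4 Brg1fl/fl libraries; dashed lines mark the shares over all shared regions. The orange bars are lowest, at 2.85%, just upstream of the start and exceed 14% at 151 to 1000 bp upstream and at 100 to 199 bp downstream.

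In sequence, the members were poorer in CCAAT boxes. The NF-Y motif CCAAT, on either strand within 100 bp of the summit, was found in 89 members (26.4%), in 36.7% of all shared regions and in 48.6% of the reverse set. At promoters alone the shares were 30.4%, 38.7% and 49.8%. At least 2 CCAAT boxes were present in 12.5%, 17.2% and 28.5%. The order was the same for both positions examined, with 25.2%, 35.0% and 51.1% of the regions whose summits were within 100 bp and 37.5%, 48.6% and 52.9% of those over 100 bp upstream. It rested on libraries 3 and 4, whose chosen regions had the motif in 28.6%, whereas those chosen on libraries 1 and 2 had it in 35.6%, near the 36.7% of all.

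Other promoter motifs differed by fewer percentage points. The SP/KLF box GGGCGG was present in 67.1% of members, 72.3% of all and 78.7% of the reverse set, and its promoter share was 75.9% in members and in all alike. The ETS site CCGGAAGT was found in 4.75% of members and 7.64% of all, and the CTCF core AGGGGGC in 13.6% and 15.3%, an order that turned within 250 bp of the summit, where it was in 28.8% and 26.7%. The E2F site TTCCCGC, which is bound by the factors that time cell cycle genes, went the other way, with 9.50% of members, 7.77% of all and 5.62% of the reverse set. Within 250 bp, however, E2F sites were in 17.2% of members and 17.0% of all, while NF-Y remained lower in the members, at 41.2% and 50.2%. The ETS motif and that searched for PU.1 share the letters GGAAGT and the other matches may overlap too, and a match in the reference is not a bound site. Of the lineage factors, the EBF motif was in none of the members and in 27 of the shared regions (0.589%). Within 250 bp the EBF motif was in 1.19% of members and 1.51% of all. The composite ETS-IRF motif was in 6 members, 49 shared regions and none of the reverse set. The ETS-IRF share of 1.78% of members and 1.07% of all turned to 2.37% and 3.01% within 250 bp. GC content was alike, with medians of 66.7%, 67.7% and 67.2%.

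**Figure D5:**
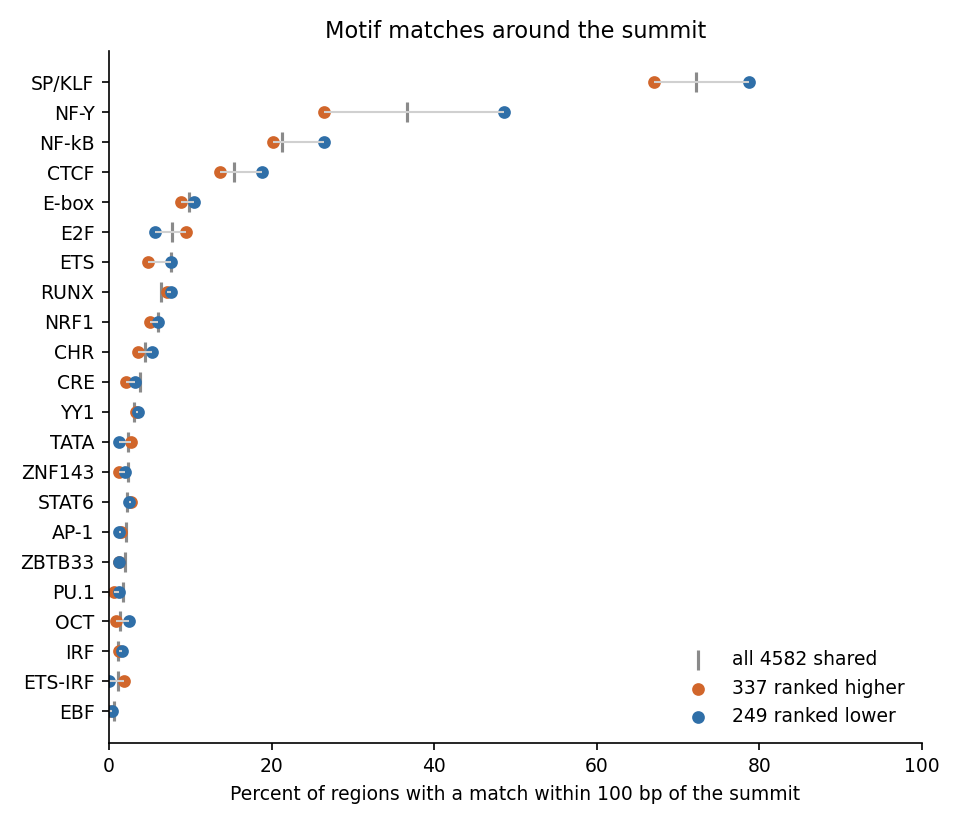
Percent of regions with a match to each of 22 motifs, on either strand within 100 bp of the summit (x axis), in the 337 members (orange), the 249 regions ranked lower in Brg1fl/fl (blue) and all 4582 shared regions (grey ticks). NF-Y shows the widest spread, from 26.4% in the members to 48.6% in the regions ranked lower.

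The genes at member promoters were described by 24 lists of B cell, cell cycle and chromatin genes, which together had 276 shared promoter regions. Of these, 22 (7.97%) were members and 15 were in the reverse set. Over all shared promoters, 6.78% were members. The lists were written with earlier results of these data known and are therefore not independent of them, and many hold few regions.

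Genes of chromosome architecture and of the remodelling complex itself had the highest counts among the 24 written lists. They were picked as the highest, and each list held few regions, so the counts are a description. Of all shared promoters, 6.78% were members. Of 11 shared promoters of CTCF and cohesin genes 4 were members, and none was in the reverse set. These were Stag1 and Smc3, which are subunits of the cohesin ring, Nipbl, its loader, and Esco1, its acetyltransferase. The ranks of Stag1 were 56.4, 48.4, 86.7 and 86.1 against 93.8, 94.5, 97.1 and 98.5, a gap of 7.05 points, which was 0.349 by −log10 q and 0.0546 by summit fragments. The gaps of Nipbl (1.52), Smc3 (0.764) and Esco1 (0.687) were small. Of 12 BAF and PBAF promoters, 3 were members and none was in the reverse set. Brd7, a PBAF subunit, ranked at 43.0, 48.7, 48.4 and 48.4 against 89.2, 70.9, 88.1 and 70.7. Actb (gap 2.25), whose product is also the cytoskeletal actin, and Bcl7c (3.15) were closer to the threshold. By summit fragments the gap of Brd7 was 6.74 points, whereas Actb (−2.29) and Bcl7c (−2.25) overlapped between genotypes. The Smarca4 promoter was not a member, at 78.5, 73.4, 85.9 and 71.8 against 92.4, 85.1, 94.6 and 94.0, a gap of −0.873 points. Among 20 promoters of other remodellers, Smarca5, the ISWI ATPase, was the only member, with a gap of 9.38 points.

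Of the MYC and MAX network, 2 of 9 promoters were members, Max, the obligate partner of MYC (gap 16.3), and Mxd3, a repressor that competes with MYC (7.88). The Max promoter ranked at 30.4, 23.5, 16.6 and 27.4 against 76.6, 46.6, 57.9 and 52.4. Among the B cell transcription factors 1 of 11 was a member, Bcl6, the repressor of the germinal centre programme, at 55.6, 48.2, 24.7 and 48.7 against 66.5, 68.7, 69.4 and 77.1. Its folds overlapped, from 8.22 to 14.0 against 10.8 to 13.6, and 3 others of the list, Etv6, Irf8 and Mef2b, were in the reverse set. The Pax5 promoter ranked between 34.5 and 76.5 in Brg1fl/+ and between 52.8 and 81.5 in Brg1fl/fl.

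In the cell cycle lists the counts were too small to be told from the 6.78% of all shared promoters. None of 25 DNA replication promoters and none of 11 of cyclins, CDKs and their inhibitors was a member, and 2 and 1 were in the reverse set. Of 11 E2F, DP and DREAM promoters 1 was a member, Rbl1, which encodes the pocket protein p107 (gap 8.02), and of 13 mitotic promoters 1, Fzr1, the CDH1 activator of the anaphase-promoting complex (2.79). The promoters of Cdkn3 and E2f8 were shared but overlapped between genotypes.

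The remaining members by list were Hspa8 (gap 4.12) and Tcp1 (0.698), a heat shock protein and a chaperonin subunit, Hdac4 (2.18) and Ing1 (1.40), which belong to corepressor complexes, and Jarid2 (2.87), a cofactor of Polycomb. Atf2 (1.17), of the AP-1 family, Zbtb20 (3.93), a plasma cell regulator, and H2-DMa (1.48), which loads peptides on MHC class II and shares its region with Brd2, completed them. Gaps of this size were set by single libraries. That of Hspa8 was 29.9 points without Brg1fl/+ replicate 3, that of Hdac4 15.5 without Brg1fl/fl replicate 3, and that of Atf2 13.8 and of Tcp1 3.37 without Brg1fl/+ replicates 4 and 1. The Zbtb20 region lies at another annotated start of that gene, with its summit at −32022 bp from the nearest coding start. No shared promoter of the lists for B cell receptor signalling (4 regions), TLR4 signalling (7), IL-4 and STAT6 (4), interferon response (6), the BCL2 family (6), activation markers (2), homing (4) or class switching and DNA repair (18) was a member.

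Of the 13 families defined by their gene symbols, translation initiation and elongation factors had the highest share of members and were picked for it. They had 7 members among 36 shared promoters (19.4%), beside 6.78% of all shared promoters, and 1 region in the reverse set, Eif2b2. The 7 were Eif1, Eif1a, Eif2s3x, Eif3d, Eif4a2, Eif4b and Eif5a. Eif5a, the factor that carries hypusine, had folds of 13.5, 12.8, 10.7 and 12.7 against 14.1, 11.4, 15.2 and 12.8, which overlapped, and a gap of 10.9 points. Cytosolic ribosomal protein genes had 3 members of 56 and 4 in the reverse set, and mitochondrial ribosomal proteins 3 of 26 and 1. Splicing factors had 5 members of 41 and 5 in the reverse set, and oxidative phosphorylation 1 of 33 and 2. Ubiquitin conjugating enzymes and ubiquitin-specific proteases had 5 of 39 and 1, and small nucleolar RNA hosts 1 of 6 and 0. Zinc finger proteins named Zfp had 5 of 82 and 3, and solute carriers 3 of 54 and 5. The 19 proteasome, 21 histone, 11 RNA polymerase and 15 tRNA synthetase promoters held no member, and 1, 0, 1 and 3 in the reverse set.

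By chromosome, X stood apart, with 13 members among 76 shared regions (17.1%) and 2 in the reverse set, beside 324 of 4503 autosomal regions (7.20%). The members on X included the promoters of Wdr45, an autophagy gene, of Med14, a Mediator subunit, and of Phf8, a histone demethylase, named after their values were seen. The Wdr45 region (chrX:7714004-7714760) ranked at 62.5, 48.1, 50.4 and 59.4 in Brg1fl/+ and 85.8, 89.0, 97.5 and 98.1 in Brg1fl/fl. Its summit lay at −7590 bp from the coding start of Wdr45, and 50.8% of its 31-bp words occurred in another shared region as well. The median rank of all X regions was 37.1, 37.7, 38.9 and 34.7 in Brg1fl/+ and 40.01, 37.8, 49.8 and 42.4 in Brg1fl/fl. The sex of the mice is not given in the labels. A promoter peak of the Y-linked gene Eif2s3y was listed for Brg1fl/+ replicates 1 and 2 and Brg1fl/fl replicate 4, and that of Ddx3y for Brg1fl/+ replicate 1. No list had a promoter peak of Y-linked Kdm5d or Uty, or of X-linked Xist. Every list held peaks on Y, from 11 to 28. The part of sex in the ranks on X was not tested. Within 5000000 bp of Smarca4, where sequence linked to the floxed allele would lie, 3 of 28 shared regions were members and 4 were in the reverse set.

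At the threshold itself, 3 members had the smallest possible gap of 0.0218 points, namely the Dact3 promoter, Gm26917 on chromosome 17 and an intron of Cldn34d on X. Gm26917 had the second lowest rank in every Brg1fl/fl list and the lowest in every Brg1fl/+ list, with folds of 2.04 to 2.26 against 2.39 to 2.50. Just outside, with a gap of 0, lay an intron of Gm33838 and regions nearest Mrgprd and Galc, all of which ranked above 98 in every list. Of the 29 members at tandem repeats, 5 had a mean rank above 99, where neighbouring ranks leave little room for a gap.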

How the data were processed

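ATAC-seq was analysed in 8 libraries, grouped by the genotype and replicate number in the labels. 8 RNA-seq libraries were not analysed here. The authors used Bowtie2 for alignment to mm10, and MACS2 to call peaks library by library; versions and options, and the handling of duplicates, repeated alignments and transposase offset, are not given in the sources used here. The deposited lists hold the fold of each summit over local background (a ratio) together with its −log10 p and −log10 q (lowest q 1.31), all as deposited. Folds depend on depth and were compared only as ranks within a library or as stated.

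Peaks were joined and ranked with Python 3.11.15 (pandas 2.3.3, scipy 1.17.1, pysam 0.24.0). Fragments were recovered by solving MACS2's fold, (fragments + 1)/(background + 1), with its Poisson p. Over 99.9% of the peaks of each library gave a whole number within 0.02. Regions were placed by their centre on GENCODE M21, and sequences were read from RefSeq GRCm38.p6. The rules were tested on simulated data.

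The named regions were the 10 members with the widest gap, the 5 widest distal members, the 3 on each side of the threshold, members at promoters of the listed genes and promoters of genes that the study names, except an item that is not reported here. The members and lists were chosen with earlier results of these data known. Alternatives changed the ranked value, peak threshold, list length, joining, chromosomes, repeats, margin, libraries, promoter and motif windows.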

Additional observations from a re-analysis of the deposited data

Results flagged for a closer look

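In 88 groups of 4 libraries, covering library properties and the folds of named members, 5 had 1 library far from the other 3 by Dixon's test, where chance flags about 1 in 20. Brg1fl/fl replicate 2, which had the shortest list, had the lowest median fold over shared regions, 9.27 against 11.1 to 11.2 in the other Brg1fl/fl libraries. Its median fold over the members was 11.3 against 12.8 to 13.1, and its fold at the intron of Tmem267 was 18.7 against 20.1 to 20.2. At the intron of Dlgap2, Brg1fl/fl replicate 3 stood apart at 16.03, above the other 3 at 13.3 to 13.4. At the Hspa8 promoter Brg1fl/fl replicate 1 stood apart at 17.9, above 14.3 to 14.4.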

How the results depend on the processing

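The number of members and of regions in the reverse set stayed within 1.5 times of 337 and 249 when the value ranked, peak threshold, list length, joining, chromosomes or repeats were changed. With a gap of at least 5 points there were 166 and 133, with 1 library left out 405 to 576 and 324 to 386, with libraries 1 and 2 alone 1299 and 1138, and with 3 and 4 alone 1042 and 984. Ranking by summit fragments gave 338 regions, of which 167 were members (49.6% of the members and 49.4% of the 338), and ranking by −log10 q gave 353, of which 216 were members. The replicate block, which asks for Brg1fl/fl above the Brg1fl/+ library of the same number in all 4 pairs, gave 689 higher and 604 lower, and did not change the depth comparison (p = 0.25 and 0.5, exact sign-flip). Same-numbered libraries did not deviate together (correlations 0.012, −0.073, −0.026 and −0.056). Whether they shared anything beyond the number is not stated in the labels.

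The promoter share of 80.1% became 72.5% by −log10 q, 68.9% by fragments, 84.7% with −log10 q of at least 5, 89.0% with equal list lengths (90.3% of all shared regions), 85.6% and 85.8% without soft-masked or tandem-repeat regions (89.3% and 88.7% of all), 84.9% with the gap of 5 points, 84.5% in libraries 3 and 4, and 85.8% and 73.9% with the wider window or coding transcripts only. The share also higher in libraries 3 and 4 was 42.7% by −log10 q and 41.5% by fragments instead of 36.0%, and that in libraries 1 and 2 was 41.1% by fragments instead of 44.9%. Tandem-repeat members, examined after seeing the data, numbered 50 by fragments, 16 with −log10 q of at least 5, 11 with equal list lengths, 16 without soft-masked regions, 12 with the gap of 5 points, 65 in libraries 1 and 2 and 44 in libraries 3 and 4, instead of 29. As a share of the tandem repeats in each setting, in the same order, these were 48.1%, 29.1%, 33.3%, 43.2%, 11.4%, 61.9% and 41.9%, instead of 27.6%. Of all shared regions, members were 7.38%, 7.56%, 7.34%, 7.34%, 3.62%, 28.4% and 22.7%, instead of 7.35%. Members on X numbered 26 in libraries 1 and 2 and 29 in libraries 3 and 4, instead of 13. Members on any chromosome numbered 1299 and 1042 in those pairs, instead of 337. The causes of these shifts were not tested.

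Leaving out a library can only keep or widen a gap, so it does not test the named members. It widened 20 of 36 gaps by over 1.5 times. The widest were, without Brg1fl/+ replicate 1, Smc3 4.80 and Bcl6 17.7, without Brg1fl/+ replicate 3, Dlgap2 36.5, Zbtb20 8.14, Fzr1 6.31 and Jarid2 5.43, without Brg1fl/+ replicate 4, Rbl1 17.9, Esco1 8.22 and Cldn34d 0.0873, without Brg1fl/fl replicate 1, Bcl7c 8.97 and Dact3 6.37, without Brg1fl/fl replicate 3, Smarca5 17.3 and H2-DMa 6.48, and without Brg1fl/fl replicate 4, Actb 14.8, Nipbl 10.5 and Ing1 2.51. By −log10 q, 25 of the 36 named members kept a gap above 0, and by fragments 20. A gap below 0 means that the genotypes overlap. By −log10 q it was −0.775 at Bard1, −0.0655 at Hspa8, −1.55 at Zbtb20, −0.306 at Fzr1 and Actb, −6.05 at Hdac4, −3.70 at Atf2, −0.393 at Smc3, −2.20 at Tcp1, −4.10 at Dact3 and −1.46 at Gm26917. By fragments it was −0.917 at Uvrag, −3.07 at Zmiz2, −1.07 at Usp20, −5.31 at Bard1, −1.81 at Smarca5, −0.164 at Hspa8, −1.70 at Zbtb20, −2.25 at Bcl7c, −1.09 at Fzr1, −2.29 at Actb, −4.86 at Hdac4, −0.142 at Ing1, −5.51 at Atf2, −1.25 at Tcp1, −3.71 at Dact3 and 0 at Gm26917. Depth limits single regions: the median shared region rested on 22 to 78 fragments.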
